A study of Mus musculus with 16 samples.

Results

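The question addressed here was which cortical transcripts follow the number of intact Trem2 alleles in mice with mutant tau. Of the 16 cortical libraries of the series, 12 came from mice carrying the P301S tau transgene, and these were chosen by that genotype alone. All 12 mice carried P301S, a mutant form of the microtubule-associated protein tau. They fell into 3 groups of 4: P301S+ TREM2+/+ with 2 intact Trem2 alleles, P301S+ TREM2+/- with 1 (the heterozygotes) and P301S+ TREM2-/- with 0 (the knockouts). Each group held 2 females and 2 males of 8 to 9 months on the strain labelled C57BL/6; C3. Replicates 1 and 2 of each group were the females, and 3 and 4 the males. The 4 TREM2+/+ mice without the transgene, 2 of each sex and of the same age and strain, entered no fit and are given as background levels. The promoter of the transgene, the deleted part of Trem2 and any litter or preparation day are not given in the sources used here. Mice were numbered consecutively by genotype, so that a batch following that order cannot be told apart from allele number.

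TREM2 is a surface receptor of microglia, the macrophages that reside in brain tissue. It binds lipids and lipoproteins such as apolipoprotein E and signals through the adapter TYROBP (DAP12) and the kinase SYK. Microglia near plaques, dying neurons or tau pathology lower a homeostatic programme (P2ry12, Tmem119, Cx3cr1) and raise a disease-associated one. The first stage of that programme (Tyrobp, Apoe, Ctsd) can begin without TREM2, and the second (Cst7, Lpl, Axl, Clec7a) depends on it in amyloid models.

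For each of 11990 genes with a mean of at least 1 RPKM (a read number scaled to 1 kilobase of gene length and to 1e+06 reads) over the 12 libraries, a slope was fitted. It is the change of log2(RPKM + 1) per intact Trem2 allele, with sex in the model, so that a positive slope means a higher level with more alleles. With 4 mice at each allele number the slope equals the difference between the P301S+ TREM2+/+ and knockout means divided by 2, and the heterozygotes enter it only through the spread. What the heterozygotes add is the departure, their mean minus the midpoint of the other 2 groups on the log2 scale. Where P301S+ TREM2+/+ or knockout libraries were left out of a fit with both sexes, the groups were no longer balanced for sex. The heterozygotes then also entered the slope, through the sex term. Depth was 8.00 ± 3.26 M reads in P301S+ TREM2+/+ mice (M stands for 1e+06), 9.29 ± 1.96 M in heterozygotes and 5.94 ± 2.68 M in knockouts (SD, n = 4 each), with a range of 2.55 to 12.67 M. The slope of depth on allele number had a two-sided exact permutation p of 0.321. Cortical markers were present in all 12 libraries, with Slc17a7 of excitatory neurons at 64.0 to 185 RPKM, Gad1 of inhibitory neurons at 27.7 to 213 and P2ry12 of microglia at 12.98 to 27.7. Ttr, a choroid plexus transcript, ranged from 65.8 to 1739 RPKM.

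The pair of P301S+ TREM2+/+ females stood apart from the other 10 libraries. The first principal component held 37.3% of the variance over the tested genes. Their scores on it were -49.4 and -43.9, and those of the others lay between -6.30 and 23.3. The P301S+ TREM2+/+ males scored 7.68 and 13.1, within the range of heterozygotes and knockouts. These females had 6.95 and 7.32 M reads, inside the range of the other libraries, and 13.3% and 15.1% of reads in the top 50 genes against 12.97% to 14.96% elsewhere. The slopes of the genes past the threshold and the medians of the gene lists with at least 3 measured members are therefore given with and without this pair.

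The genes past the trend threshold were few. At a Benjamini-Hochberg adjusted p under 0.05 in limma, 9 of 11990 genes passed (0.0751%). Of these, 7 were higher with more intact alleles (0.0584%): Flywch1, C1qtnf4, Trem2, Map1lc3a, Usp5, Enho and Dctn1. The other 2, Oard1 and Spns2, were lower with more alleles (0.0167%). At an unadjusted p under 0.05 there were 2682 genes (22.4%), 1198 with a positive slope and 1484 with a negative one. Without the pair of P301S+ TREM2+/+ females 0 genes passed the adjusted threshold in limma. An unadjusted p under 0.05 was then left for 560 of 11990 genes, against 2682 with the pair, in a fit with 2 fewer libraries. The median absolute slope of the 2682 was 0.25 with the pair and 0.13 without. Of them 97.4% kept their sign, in fits that share the other 10 libraries. Leaving out 1 library at a time gave 1 to 1091 genes, the high count without P301S+ TREM2+/+ replicate 4, a male. Of these 12 fits, Flywch1 passed in 12, C1qtnf4 in 9, Map1lc3a in 7, and Trem2 and Oard1 in 6 each. Usp5 passed in 4, Enho in 3, Spns2 in 2 and Dctn1 in 1.

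3 of the 9 genes lie on chromosome 17, the chromosome of Trem2: Trem2 itself (48346401 to 48354147, plus strand), Oard1 (48410014 to 48417266, plus strand, with its start 63.6 kb from that of Trem2) and Flywch1 (23752793 to 23771602, minus strand; GRCm38, GENCODE vM21). Of the 11990 tested genes, 533 lie on chromosome 17, and whether 3 of 9 exceeds that share was not tested. Trem2 is the altered gene itself, and Flywch1 starts more than 5 Mb from it. The upstream sequences of these 3 genes are shown because the genes passed the trend threshold and share a chromosome with the altered locus. Each is the 250 bases before the RefSeq start (GRCm38.p6), read 5′ to 3′ on the gene's own strand. They are chr17:48346151-48346400 on the plus strand for Trem2, chr17:48409750-48409999 on the plus strand for Oard1 and chr17:23771603-23771852 on the minus strand for Flywch1. Capitals mark matches, on either strand, to a CCAAT box (CCAAT) or a GC box (GGGCGG).
Trem2: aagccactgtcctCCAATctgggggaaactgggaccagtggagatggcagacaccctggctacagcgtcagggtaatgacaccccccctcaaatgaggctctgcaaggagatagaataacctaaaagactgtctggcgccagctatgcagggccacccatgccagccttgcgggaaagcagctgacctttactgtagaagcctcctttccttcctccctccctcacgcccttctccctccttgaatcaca
Oard1: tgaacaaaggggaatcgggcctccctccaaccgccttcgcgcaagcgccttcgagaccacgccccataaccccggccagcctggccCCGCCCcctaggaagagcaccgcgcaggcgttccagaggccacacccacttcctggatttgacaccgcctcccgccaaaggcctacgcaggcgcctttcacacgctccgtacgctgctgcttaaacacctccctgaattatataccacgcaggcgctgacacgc
Flywch1: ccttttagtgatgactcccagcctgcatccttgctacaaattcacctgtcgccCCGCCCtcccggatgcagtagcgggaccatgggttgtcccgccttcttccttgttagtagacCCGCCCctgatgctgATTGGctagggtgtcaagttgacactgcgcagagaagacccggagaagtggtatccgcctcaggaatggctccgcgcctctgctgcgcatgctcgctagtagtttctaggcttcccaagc
The Trem2 window held 1 CCAAT match and no GC box, the Oard1 window a GC box, and the Flywch1 window both motifs. Among the 9030 tested genes with a promoter in the RefSeq table, 36.07% of such windows held a CCAAT match and 60.4% a GC box. GAGGAAGT, a form of the site of the myeloid factor PU.1, was in 2.16% of windows and in none of the 5 windows matched to the 9 genes.

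Trem2 checked the labels. It was 34.0, 30.1, 29.6 and 14.3 RPKM in P301S+ TREM2+/+ replicates 1 to 4. Heterozygotes had 4.50, 8.37, 25.2 and 13.6 RPKM and knockouts 1.44, 1.71, 1.46 and 3.75. All knockouts lay below all heterozygotes, whereas heterozygote replicate 3 was above P301S+ TREM2+/+ replicate 4. Group means were 27.0 ± 8.69, 12.9 ± 8.98 and 2.09 ± 1.11 RPKM (SD, n = 4 each), and controls without tau had 12.4 ± 5.53. The slope was 1.59 log2 per allele (SE 0.20, limma adjusted p = 0.0108), and 12.5 RPKM per allele on the linear scale (two-sided exact permutation p = 0.00104 over 34650 arrangements). It was 1.202 log2 per allele (SE 0.22, limma adjusted p = 0.433) without the 2 females that stood apart. The knockout libraries held 5 to 29 Trem2 reads. These are 3′ reads, and whether they lie outside the deleted part was not tested.

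Trem2 levels vary with the amount of microglial RNA, and in bulk cortex fewer microglia and less RNA per microglial cell cannot be told apart. Dividing Trem2 by Tyrobp, its adapter, in the same library separated the 3 genotypes. The ratio was 0.291, 0.360, 0.354 and 0.288 in P301S+ TREM2+/+ mice. It was 0.187, 0.181, 0.213 and 0.128 in heterozygotes and 0.0483, 0.0772, 0.0329 and 0.0519 in knockouts. No library of one genotype overlapped with the next, and the exact permutation p for the slope was 5.77e-05, the smallest that 34650 arrangements can give. The departure of Trem2 was 0.41 log2 (95% interval -0.34 to 1.17), with the heterozygotes nearer the 2-allele group. On the linear scale it was -1.64 RPKM (SE 4.68), so the sign of the departure of Trem2 depends on the scale.

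**Figure D1:**
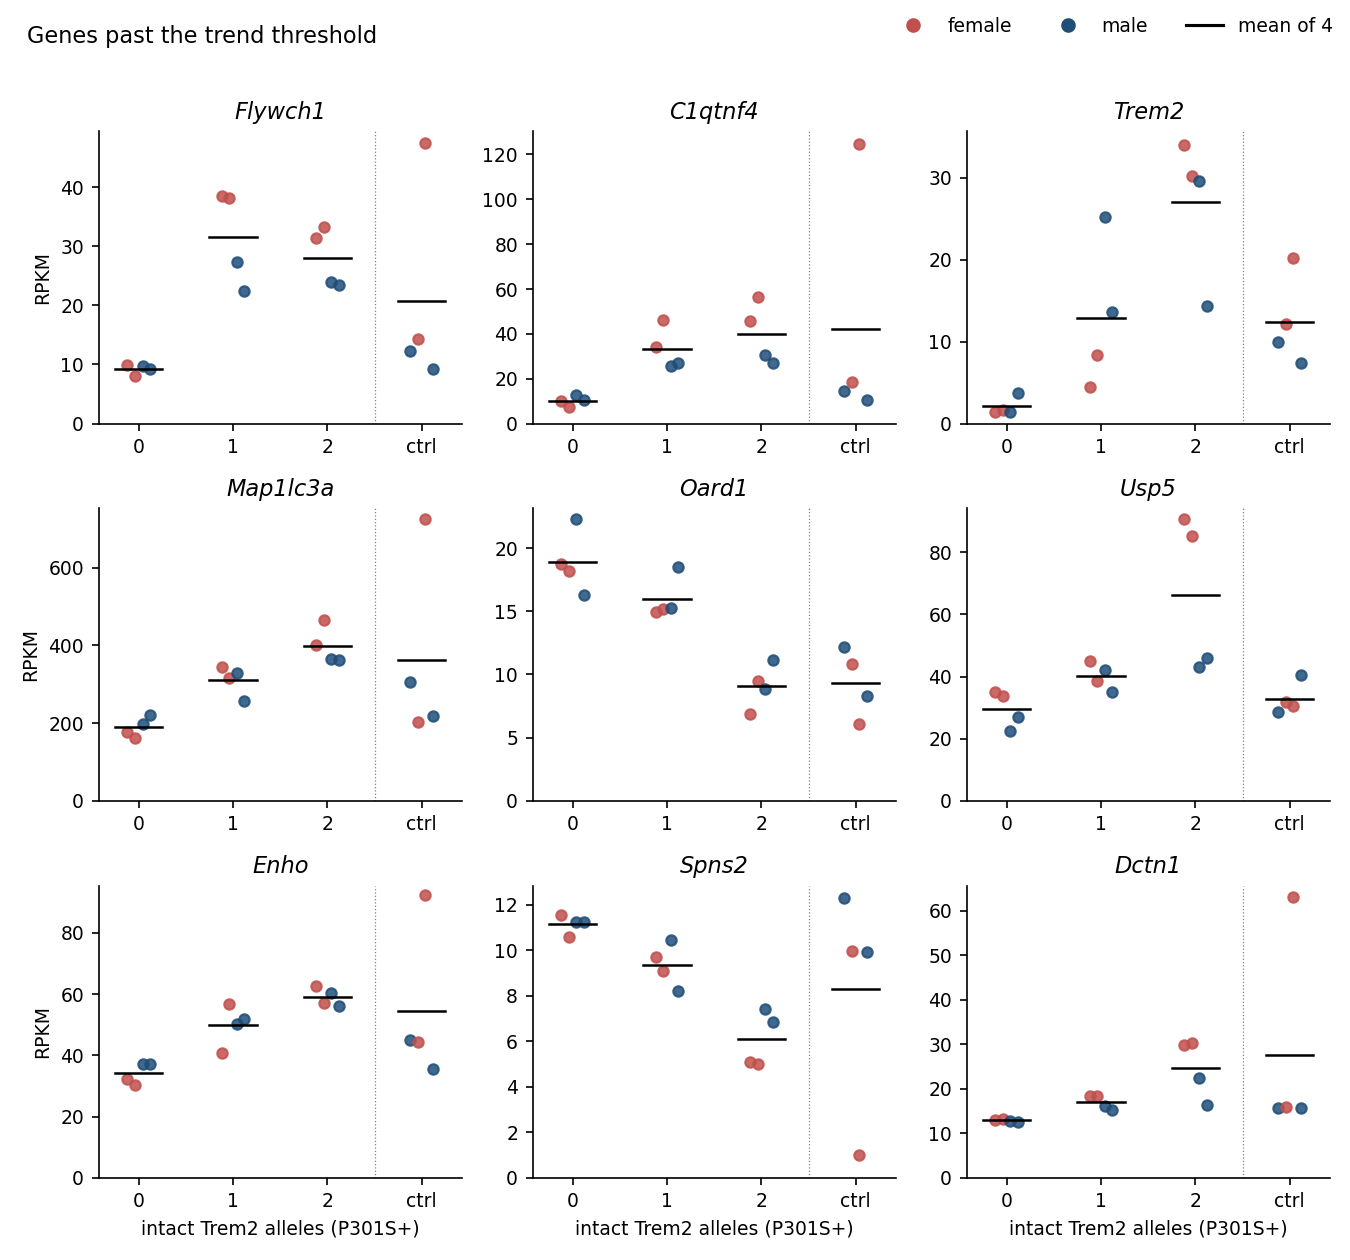
RPKM (vertical axis, from 0) of the 9 genes past the trend threshold in every library, by number of intact Trem2 alleles in P301S+ mice and in controls without tau (ctrl); points are libraries, red female and blue male, and bars are means of 4. Trem2 knockouts lie at 1.44 to 3.75 RPKM, below all heterozygotes, and control replicate 3, a female, is the highest control for Flywch1, C1qtnf4, Map1lc3a, Enho and Dctn1.

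Flywch1, a zinc-finger protein gene, had the smallest trend p. Its level was 31.4, 33.3, 23.9 and 23.4 RPKM in P301S+ TREM2+/+ mice and 38.4, 38.2, 27.4 and 22.4 in heterozygotes. Knockouts had 9.84, 7.96, 9.81 and 9.27 RPKM. The knockouts stood below every other P301S+ library, and the heterozygotes overlapped the 2-allele group and had the higher mean. The slope was 0.75 (SE 0.07, limma adjusted p = 0.00279) and the departure 0.90 (95% interval 0.62 to 1.17, limma adjusted p = 0.134). The slope was 0.70 (SE 0.10, adjusted p = 0.170) without the 2 females. It was the only gene of the 9 that passed the threshold with each library left out in turn (12 of 12). Controls without tau, which carry 2 intact alleles, had 12.3, 14.2, 47.4 and 9.26 RPKM. Of these 4 controls, 3 lay nearer the knockouts than the 2-allele P301S+ mice.

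C1qtnf4, which encodes a secreted protein with a C1q-like domain, had a like pattern. It was 45.6, 56.5, 30.7 and 27.1 RPKM in P301S+ TREM2+/+ mice, 34.0, 46.0, 25.5 and 26.9 in heterozygotes, and 9.92, 7.18, 12.7 and 10.4 in knockouts. The knockouts were again apart from the other 8 libraries, which overlapped. The slope was 0.93 (SE 0.11, limma adjusted p = 0.0108) and the departure 0.68 (95% interval 0.26 to 1.11, adjusted p = 0.992). Without the 2 females the slope was 0.75 (SE 0.13, adjusted p = 0.433). Its slope also differed between the sexes, at 1.23 in females and 0.63 in males (limma adjusted p = 0.0395). Controls had 14.5, 18.5, 124 and 10.5 RPKM. Control replicate 3 was thus the extreme control for both genes, and it also had 749 snoRNA reads per 1e+06 against 33.7 to 65.6 in the other controls. The part of that library's other differences in these control levels was not tested.

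Map1lc3a, which encodes LC3A of the autophagosome membrane, followed allele number library by library. It was 400, 464, 365 and 362 RPKM in P301S+ TREM2+/+ mice, 345, 316, 330 and 256 in heterozygotes and 178, 162, 199 and 220 in knockouts. The 3 groups did not overlap. The slope was 0.53 (SE 0.07, limma adjusted p = 0.0108), and 0.46 (SE 0.08, adjusted p = 0.433) without the 2 females. Its departure was 0.18 (95% interval -0.07 to 0.43). Controls without tau, which carry 2 intact alleles, had 305, 203, 724 and 217 RPKM.

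Usp5 encodes a deubiquitinase that takes apart free ubiquitin chains. It was 90.7, 85.3, 42.9 and 45.9 RPKM in P301S+ TREM2+/+ mice, 45.0, 38.5, 42.2 and 35.1 in heterozygotes and 35.0, 33.8, 22.3 and 26.9 in knockouts. The P301S+ TREM2+/+ females were far above all others, and the males of that group overlapped the heterozygotes. In controls without tau Usp5 was 28.7, 31.9, 30.5 and 40.6 RPKM. The slope was 0.54 (SE 0.08, limma adjusted p = 0.0325), and 0.37 (SE 0.08, adjusted p = 0.823) without the 2 females. Dctn1, a subunit of the dynactin complex that links dynein to its cargo, went the same way. It was 29.8, 30.2, 22.4 and 16.4 RPKM with 2 alleles, 18.5, 18.4, 16.2 and 15.3 with 1 and 13.1, 13.3, 12.8 and 12.6 with 0. Knockouts were apart from heterozygotes, and P301S+ TREM2+/+ replicate 4 fell among the latter. In controls Dctn1 was 15.7, 15.9, 63.2 and 15.7 RPKM. The slope was 0.42 (SE 0.07, limma adjusted p = 0.0493), and 0.30 (SE 0.07, adjusted p = 0.891) without the 2 females. Dctn1 passed the threshold in 1 of 12 fits that left out a library.

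Enho encodes adropin, a secreted peptide of energy metabolism. It was 62.5, 57.3, 60.3 and 56.0 RPKM in P301S+ TREM2+/+ mice, 40.8, 56.7, 50.1 and 52.0 in heterozygotes and 32.3, 30.5, 37.3 and 37.2 in knockouts. Only heterozygote replicate 2 reached the level of the 2-allele group, and the knockouts did not overlap with the heterozygotes. In controls without tau Enho was 44.9, 44.5, 92.4 and 35.6 RPKM. The slope was 0.38 (SE 0.06, limma adjusted p = 0.0325), at 0.46 in females and 0.31 in males, and 0.33 (SE 0.07, adjusted p = 0.823) without the 2 females.

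Oard1, which encodes an enzyme that removes ADP-ribose esters from proteins, ran against Trem2. It was 6.89, 9.46, 8.85 and 11.2 RPKM in P301S+ TREM2+/+ mice, 14.9, 15.2, 15.3 and 18.5 in heterozygotes and 18.7, 18.2, 22.3 and 16.3 in knockouts. The 2-allele mice lay below all others, and heterozygotes and knockouts overlapped. The slope was -0.49 (SE 0.07, limma adjusted p = 0.0235). It was -0.55 in females and -0.44 in males, and -0.45 (SE 0.08, adjusted p = 0.433) without the 2 females. The departure of 0.27 (95% interval 0.01 to 0.53, adjusted p = 0.992) placed the heterozygote mean nearer the knockouts. Controls, with 2 intact alleles and no tau, had 9.32 ± 2.69 RPKM (SD, n = 4) against 9.09 ± 1.76 in P301S+ TREM2+/+ mice.

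Spns2, a transporter of sphingosine-1-phosphate, also fell with more alleles. It was 5.11, 5.01, 7.41 and 6.84 RPKM with 2 alleles, 9.70, 9.09, 10.4 and 8.19 with 1, and 11.6, 10.6, 11.3 and 11.2 with 0. The groups did not overlap. The slope was -0.40 (SE 0.06, limma adjusted p = 0.0493), and -0.29 (SE 0.07, adjusted p = 0.853) without the 2 females. Controls had 12.3, 9.99, 1.01 and 9.94 RPKM.

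Around Trem2, 9 tested genes started within 1 Mb and 3 of them had an unadjusted trend p under 0.05, namely Taf8, Trem2 and Oard1. Taf8, a subunit of the transcription factor TFIID, was 1.41 ± 1.06 RPKM with 2 alleles, 2.53 ± 1.02 with 1 and 3.32 ± 0.17 with 0 (SD, n = 4 each). Its slope was -0.47 (limma adjusted p = 0.107). Controls without tau, which carry 2 intact alleles, had 2.55 ± 1.47 RPKM of Taf8 (SD, n = 4). Within 5 Mb, 20 of 62 genes had an unadjusted trend p under 0.05 (32.3%). On the whole of chromosome 17 it was 136 of 533 (25.5%), beside 22.4% of all genes. Of the 13 genes listed as neighbours of Trem2, including the receptor genes Trem1, Trem3 and Treml1, only Oard1 passed the filter on low values. Whether DNA of the strain in which the Trem2 allele was made flanks the locus was not tested. Mapt, the mouse tau gene, was 103 ± 15.3, 102 ± 6.37 and 102 ± 8.42 RPKM with 2, 1 and 0 alleles (slope 0.01, SE 0.06). Prnp, the prion protein gene, whose promoter drives tau in a widely used P301S line, was 733 to 1120 RPKM in the 12 P301S+ libraries and 174 to 415 in controls. Its slope was -0.03 (SE 0.07). Whether Prnp reads come from the transgene was not tested.

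**Figure D2:**
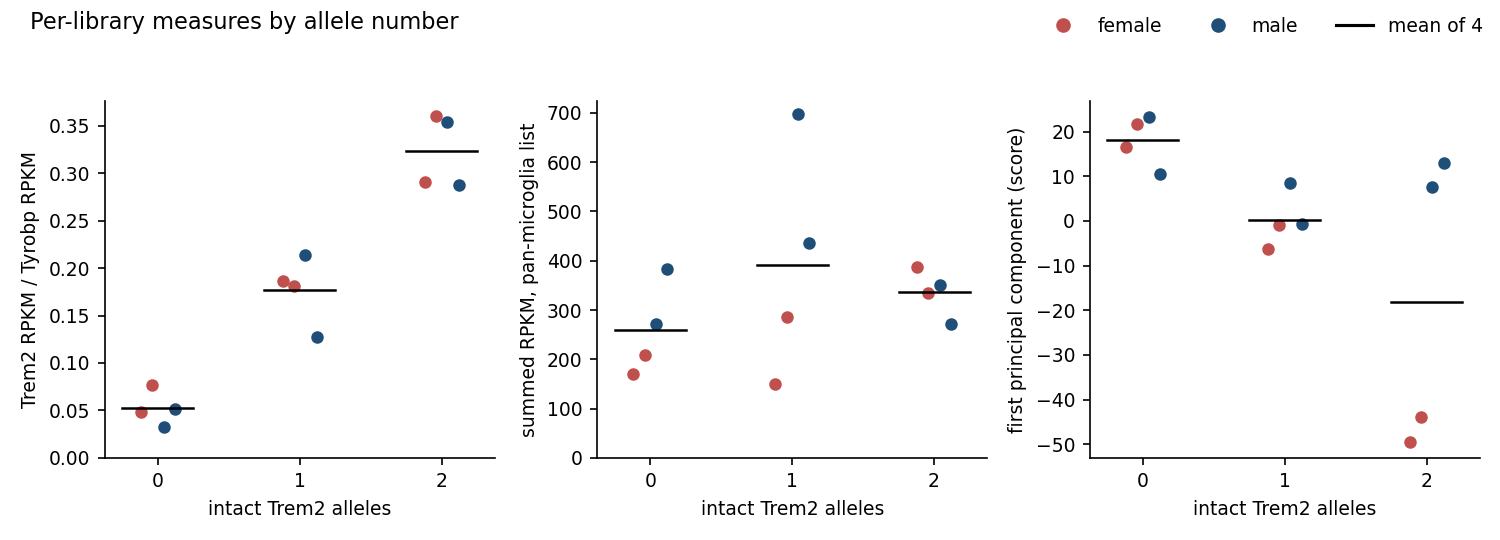
Left, Trem2 RPKM divided by Tyrobp RPKM; middle, summed RPKM of the 17 measured pan-microglia genes; right, score on the first principal component, each by number of intact Trem2 alleles (red female, blue male, bar mean of 4). The ratio separates the genotypes, the microglial sum overlaps between them, and the P301S+ TREM2+/+ females lie at -49.4 and -43.9 on the component.

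A count of genes in strict allele order gave 12 of 11990 (0.1%) whose 3 groups of 4 libraries did not overlap, 8 rising (0.0667%) and 4 falling (0.0334%). The falling ones were Spns2, Galnt18, Hspa1b and Cmtm4. Hspa1b, an inducible Hsp70 chaperone gene, was 3.12, 3.79, 3.93 and 4.07 RPKM with 2 alleles, 4.18, 4.99, 4.99 and 4.98 with 1 and 5.66, 6.69, 5.43 and 5.54 with 0 (slope -0.27, SE 0.06, limma adjusted p = 0.106). Its near-identical copy Hspa1a shares reads with it, so the level of each is uncertain, and Hspa1a had a slope of -0.36 (adjusted p = 0.106). The 5 steepest of the rising genes were Map1lc3a, Fam134c, Fam134a, Cc2d1a and Chd8. Fam134c, of a family of receptors for autophagy of the endoplasmic reticulum, was 3.74, 2.97, 2.86 and 3.17 RPKM with 2 alleles, 1.90, 2.12, 2.45 and 2.29 with 1 and 1.66, 1.54, 1.18 and 1.21 with 0. It missed the threshold (slope 0.40, SE 0.07, adjusted p = 0.0570), as did Fam134a of the same family (slope 0.32, SE 0.06, adjusted p = 0.106). Chd8, a chromatin remodeller, was 11.1 to 11.7 RPKM, 9.58 to 10.8 and 7.52 to 8.87 with 2, 1 and 0 alleles. Chd8 had slopes of 0.24 in females and 0.22 in males. Ignoring the heterozygotes, the 0- and 2-allele libraries did not overlap for 915 genes (7.63%), 571 higher (4.76%) and 344 lower (2.87%) with 2 alleles.

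Other genes close to the threshold were Nsmf, a messenger from synapse to nucleus (slope 0.41, adjusted p = 0.0527), the calcium sensor gene Hpca (0.35, 0.0939), and, with negative slopes, Paxip1 of a histone methyltransferase complex (-0.37, 0.0744) and the cytoskeletal gene Epb4.1l2 (-0.43, 0.0744). Further negative slopes among the 10 with the smallest p belonged to Rhob, a small GTPase (-0.40), Hdac3, a histone deacetylase (-0.29), and Mbp, the myelin basic protein gene (-0.38). None of these passed. The heterozygotes of Hpca, at 82.9 to 113 RPKM, lay with the knockouts (96.4 to 103) and below the 2-allele mice (123 to 220; departure -0.39).

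For the departure from linearity 0 of 11990 genes passed the threshold (0%) in limma, and 452 had an unadjusted p under 0.05 (3.77%), 263 above the midpoint (2.19%) and 189 below (1.58%). Flywch1 had the smallest p. Flywch1 alone passed when limma weighted the libraries, and with limma-voom on recovered reads, with or without library weights. Next above the midpoint were Snord16a, a small nucleolar RNA, Abca1, a cholesterol exporter, Trex1, a DNA exonuclease, and Tpmt. Abca1 was 3.06, 2.85, 8.72 and 5.03 RPKM with 2 alleles, 4.08, 5.31, 11.8 and 10.7 with 1 and 2.53, 3.44, 5.24 and 6.38 with 0. Males exceeded females of the same group for Abca1, and the genotypes overlapped (departure 0.64, SE 0.14, limma adjusted p = 0.992). Trex1 was 3.54 to 5.16 RPKM with 2 alleles, 5.96 to 8.77 with 1 and 3.10 to 5.15 with 0. Its heterozygotes lay above both other groups without overlap (departure 0.60, SE 0.14, adjusted p = 0.992).

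Furthest below the midpoint by p were the deubiquitinase gene Usp19, Rwdd1, Tmem128, Sqle of cholesterol synthesis and Rasl10a. Rwdd1 was 12.03 to 17.1, 9.24 to 11.7 and 12.004 to 16.7 RPKM with 2, 1 and 0 alleles, so that its heterozygotes were the lowest group (departure -0.48, SE 0.12, adjusted p = 0.992). Among the 2682 genes with an unadjusted trend p under 0.05, the heterozygote mean lay between the other means and nearer 2 alleles for 38.9% and nearer 0 alleles for 48.8%. It lay beyond the 2-allele mean for 6.00% and beyond the knockout mean for 6.23%. Over all tested genes these shares were 23.4% and 26.2%, and choosing genes by a large slope lowers both in advance. Of all tested genes, 46.8% had heterozygotes on the 2-allele side of the midpoint, beside 44.9% of the 2682. Among the latter it was 50.5% for positive slopes and 40.4% for negative ones. These shares describe 12 libraries that all genes have in common, and no test was made.

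**Figure D3:**
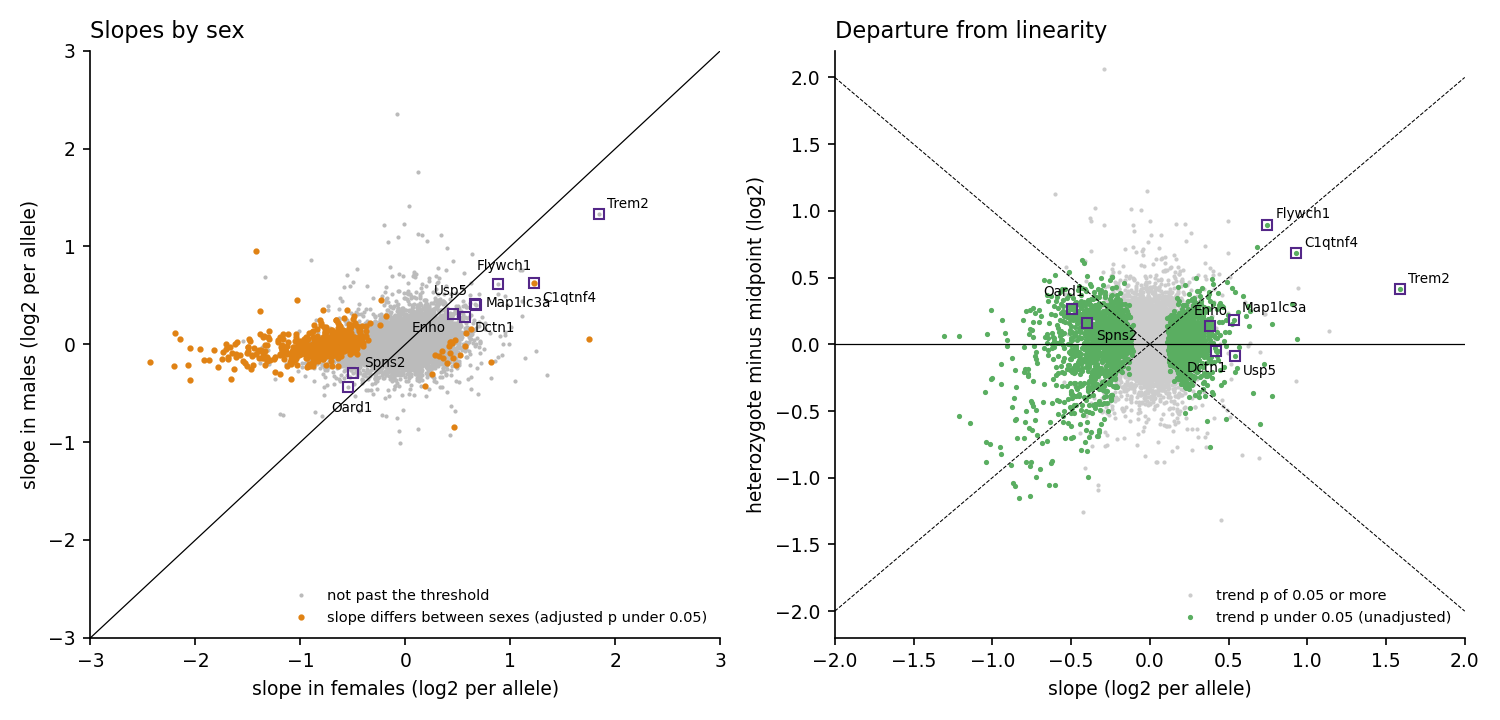
Left, slope in the 6 male against the 6 female P301S+ libraries for every tested gene (log2 per allele; line, equal slopes), with the 475 genes whose slopes differ in orange. Right, slope over all 12 libraries against the heterozygote mean minus the midpoint (log2), where dashed lines mark heterozygotes equal to one of the other groups; squares on both panels are the 9 genes past the trend threshold, and Flywch1 lies above the dashed line.

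Of 18 listed genes of Trem2 receptor signalling 10 were measured, 7 with a positive slope, and 0 passed the threshold, beside 0.0751% of all genes. A count of 0 in lists of such size is near that background and says nothing of these lists in particular. The median slope was 0.08, and -0.03 without the 2 females, beside 0.01 over all genes, of which 53.3% had a positive slope. It was 0.05 without P301S+ TREM2+/+ replicate 1 and 0.13 without replicate 3 of that group. Tyrobp was 117, 83.7, 83.5 and 49.8 RPKM with 2 alleles, 24.1, 46.3, 118 and 107 with 1 and 29.7, 22.2, 44.3 and 72.3 with 0. Heterozygous females lay within the range of the knockouts. Of the heterozygous males, replicate 3 was above all 4 mice with 2 alleles and replicate 4 above 3 of them. The slope was 0.52 (SE 0.21, limma adjusted p = 0.169), at 0.95 in females and 0.09 in males. Ptpn6, a phosphatase that restrains such receptors, had a slope of 0.34 (adjusted p = 0.166).

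Disease-associated microglial genes had mostly positive slopes, and none passed the threshold. In the stage 1 list 9 of 12 measured genes were positive (median 0.20), and in the stage 2 list 15 of 21 (median 0.18). Without the 2 females that stood apart these medians were -0.04 and -0.01. In the males alone, which also leave out that pair, they were 0.03 and 0.05. Medians near 0.2 were thus not seen without that pair. The stage 2 median was 0.12 without knockout replicate 3. Apoe, the main lipoprotein of the brain and a TREM2 ligand, was 1142, 991, 1034 and 706 RPKM with 2 alleles, 602, 769, 1204 and 1161 with 1 and 420, 541, 509 and 781 with 0. The knockouts overlapped the 2-allele group only through knockout replicate 4 and P301S+ TREM2+/+ replicate 4. The slope of Apoe was 0.40 (SE 0.11, limma adjusted p = 0.109), and its heterozygote mean lay 0.31 log2 above the midpoint (95% interval -0.12 to 0.74). Ctsd, a lysosomal protease gene, had a slope of 0.37 (adjusted p = 0.136) and Lyz2, lysozyme, one of 0.59 (adjusted p = 0.167). Cstb, a cathepsin inhibitor gene, went the other way (-0.28, adjusted p = 0.113).

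Cst7, a cystatin gene of activated microglia, was 16.9, 10.9, 7.59 and 3.44 RPKM with 2 alleles, 0.387, 2.72, 18.3 and 14.4 with 1 and 0.186, 0.397, 2.15 and 9.47 with 0. Heterozygous females were within the range of the knockouts and heterozygous males within or above that of the 2-allele mice. Its slope was 1.75 in females and 0.05 in males, a difference past the threshold (limma adjusted p = 0.0417). The slope over both sexes was 0.90 (SE 0.37, adjusted p = 0.180). Clec7a, the receptor dectin-1, was 5.24, 2.16, 2.08 and 1.98 RPKM with 2 alleles, 0.0419, 1.04, 10.5 and 7.39 with 1 and 0.161, 0.172, 0.342 and 1.24 with 0. Its 2-allele and knockout libraries did not overlap, while the heterozygotes spanned both (slope 0.68, SE 0.27, adjusted p = 0.172). Itgax, an integrin of the same programme, fell below the filter on low values, with 0.451 to 3.15 RPKM with 2 alleles, 0 to 1.51 with 1 and 0 to 0.331 with 0. Axl, a phagocytic receptor kinase gene, had a slope of 0.30 (adjusted p = 0.126). Spp1, osteopontin, had one of 0.03 and Lpl, lipoprotein lipase, one of 0.25. Csf1, the ligand of the microglial growth factor receptor, had a negative slope of -0.44 (adjusted p = 0.117).

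The summed level of the 17 measured pan-microglia genes overlapped between genotypes. It was 387, 335, 351 and 271 RPKM with 2 alleles, 149, 285, 697 and 436 with 1 and 170, 208, 272 and 383 with 0. The widest spread was among the heterozygotes. Of these genes 13 of 17 had a positive slope (median 0.12), among them the lysosomal membrane gene Laptm5 (0.46, adjusted p = 0.148). Homeostatic genes had 13 of 19 positive slopes (median 0.06), with Tmem119 at 0.25 (adjusted p = 0.234), Cx3cr1 at 0.15 and P2ry12 at -0.16 (adjusted p = 0.203). Complement had 9 of 10 positive (median 0.20). Its member C1qb, a chain of the initiator C1q, had a slope of 0.54 (adjusted p = 0.169) and C1qa one of 0.17. Lysosomal genes had 20 of 23 positive (median 0.13), with Psap, prosaposin, at 0.29 and Hexa, a hexosaminidase subunit, at 0.34 (adjusted p = 0.114 and 0.121). Without the 2 females the median slope was -0.08 for pan-microglia, -0.12 for homeostatic genes, -0.08 for complement and -0.0008 for the lysosome. None of these 4 lists kept a positive median in that fit. In the males alone the medians were -0.02, -0.09, 0.01 and -0.01 in the same order. Leaving out P301S+ TREM2+/+ replicate 1 alone gave 0.06 for pan-microglia, 0.07 for complement and 0.08 for the lysosome. Leaving out replicate 2 of that group gave 0.01 for homeostatic genes, and leaving out replicate 4 gave 0.09 for these and 0.20 for the lysosome.

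MHC class II had a median slope of 0.44, with 5 of 5 positive and 0 past the threshold. H2-Ab1, a chain of the antigen-presenting dimer, was 8.199, 3.89, 2.64 and 1.65 RPKM with 2 alleles, 0.400, 1.47, 2.61 and 2.14 with 1 and 0.613, 0.985, 0.653 and 0.497 with 0. H2-Aa, the partner chain, was 7.54 to 26.4, 1.16 to 11.6 and 1.10 to 4.11 RPKM in the same order. For each gene the 2-allele and knockout libraries were apart and the heterozygotes overlapped with both (slopes 0.72 and 0.94, limma adjusted p = 0.106 and 0.107). The median slope of the list was 0.37 in females, 0.49 in males and 0.36 without the 2 females that stood apart. It was 0.29 without P301S+ TREM2+/+ replicate 1, a female, and 0.56 without replicate 2, the other female. Members of the H2 family share sequence, and their levels are uncertain where reads could be split.

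Interferon, cytokine, general reactive astrocyte, proteostasis and mitochondrial lists had medians between -0.04 and 0.13. The general reactive astrocyte list is the one not divided into A1 and A2. Interferon response genes had 11 of 18 positive slopes (median 0.06), and 18 of 18 had the heterozygote mean above the midpoint (median departure 0.34, beside 0.02 over all genes and 6721 of 11990 above it). Their summed level was 134 to 206 RPKM with 2 alleles, 105 to 389 with 1 and 122 to 160 with 0, the highest being heterozygote replicate 3. Without the 2 females their median slope was -0.11, and it was -0.02 without replicate 2 of that pair alone and 0.13 without P301S+ TREM2+/+ replicate 4. Inflammatory cytokine and NF-kB genes had 6 of 12 positive (median 0.01, and -0.08 without the 2 females). Genes of the general reactive astrocyte list had 7 of 10 positive (median 0.13, and -0.11 without the 2 females). That median was 0.01 without P301S+ TREM2+/+ replicate 1 and 0.26 without replicate 4. Gfap, the astrocyte filament gene, was 9.96 to 22.4, 4.78 to 55.5 and 4.22 to 31.3 RPKM with 2, 1 and 0 alleles (slope 0.23, SE 0.28). Proteostasis genes had 9 of 13 positive (median 0.06, and -0.02 without the 2 females), and mitochondrial respiratory chain genes 7 of 19 (median -0.04, and -0.03 without the 2 females).

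Negative medians were seen for immediate early genes (2 of 14 positive, median -0.17), myelin (5 of 16, median -0.10) and excitatory neurons (4 of 16, median -0.09). Nr4a1, an activity-induced nuclear receptor gene, was 0.813, 0.552, 9.62 and 16.5 RPKM with 2 alleles, 4.08, 8.205, 10.2 and 3.59 with 1 and 42.6, 19.0, 12.2 and 24.1 with 0. The 2 females that stood apart were the lowest, and a 2-allele male lay above a knockout (slope -1.14, SE 0.33, limma adjusted p = 0.109). Bdnf, a neurotrophin gene, was 3.69 to 9.19, 4.53 to 12.8 and 10.9 to 14.2 RPKM, with knockouts apart from the 2-allele mice (slope -0.48, adjusted p = 0.109). Without the 2 females the median of the immediate early list was -0.05, that of myelin -0.06 and that of the excitatory list 0.01. Without 1 knockout the myelin median was -0.04 (replicate 3) and the excitatory one -0.17 (replicate 2), and without P301S+ TREM2+/+ replicate 1 the excitatory one was -0.04. Inhibitory neuron genes had 10 of 14 positive, with a median of 0.12 both with and without the 2 females, and of 0.06 without knockout replicate 1. Synaptic genes had 10 of 18 positive (median 0.04, and 0.02 without the 2 females). At an unadjusted p under 0.05, 6 were positive and 5 negative, beside 9.99% and 12.4% of all genes. Grin1, an NMDA receptor subunit, was at 0.37 and Snap25, of the release machinery, at -0.35. Tau kinases and phosphatase subunits had 12 of 20 positive (median 0.02, and -0.002 without the 2 females).

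Markers of tissue that cortex can carry along varied between libraries. The choroid plexus list had a median slope of 0.33 with 8 of 9 positive. The median was 0.43 without the 2 females, 0.12 without P301S+ TREM2+/+ replicate 3 and 0.53 without knockout replicate 1. Its summed level was 296, 1891, 2032 and 349 RPKM with 2 alleles, 152, 510, 736 and 233 with 1 and 1158, 203, 261 and 269 with 0. These sums overlapped, with the highest values in 2 of the 2-allele libraries. Striatal genes summed to 878 to 1630 RPKM, 268 to 1447 and 439 to 2004 with 2, 1 and 0 alleles. Their median slope was 0.16, with 0.10 without the 2 females and -0.06 without knockout replicate 1. Of the striatal genes 0 of 7 had a heterozygote mean above the midpoint (median departure -0.63). Meningeal genes summed to 28.0 to 87.2, 43.7 to 101 and 25.9 to 63.0 RPKM (median slope 0.20, 0.07 without the 2 females and 0.11 without P301S+ TREM2+/+ replicate 3). The part of such tissue in the slopes and departures was not tested.

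**Figure D4:**
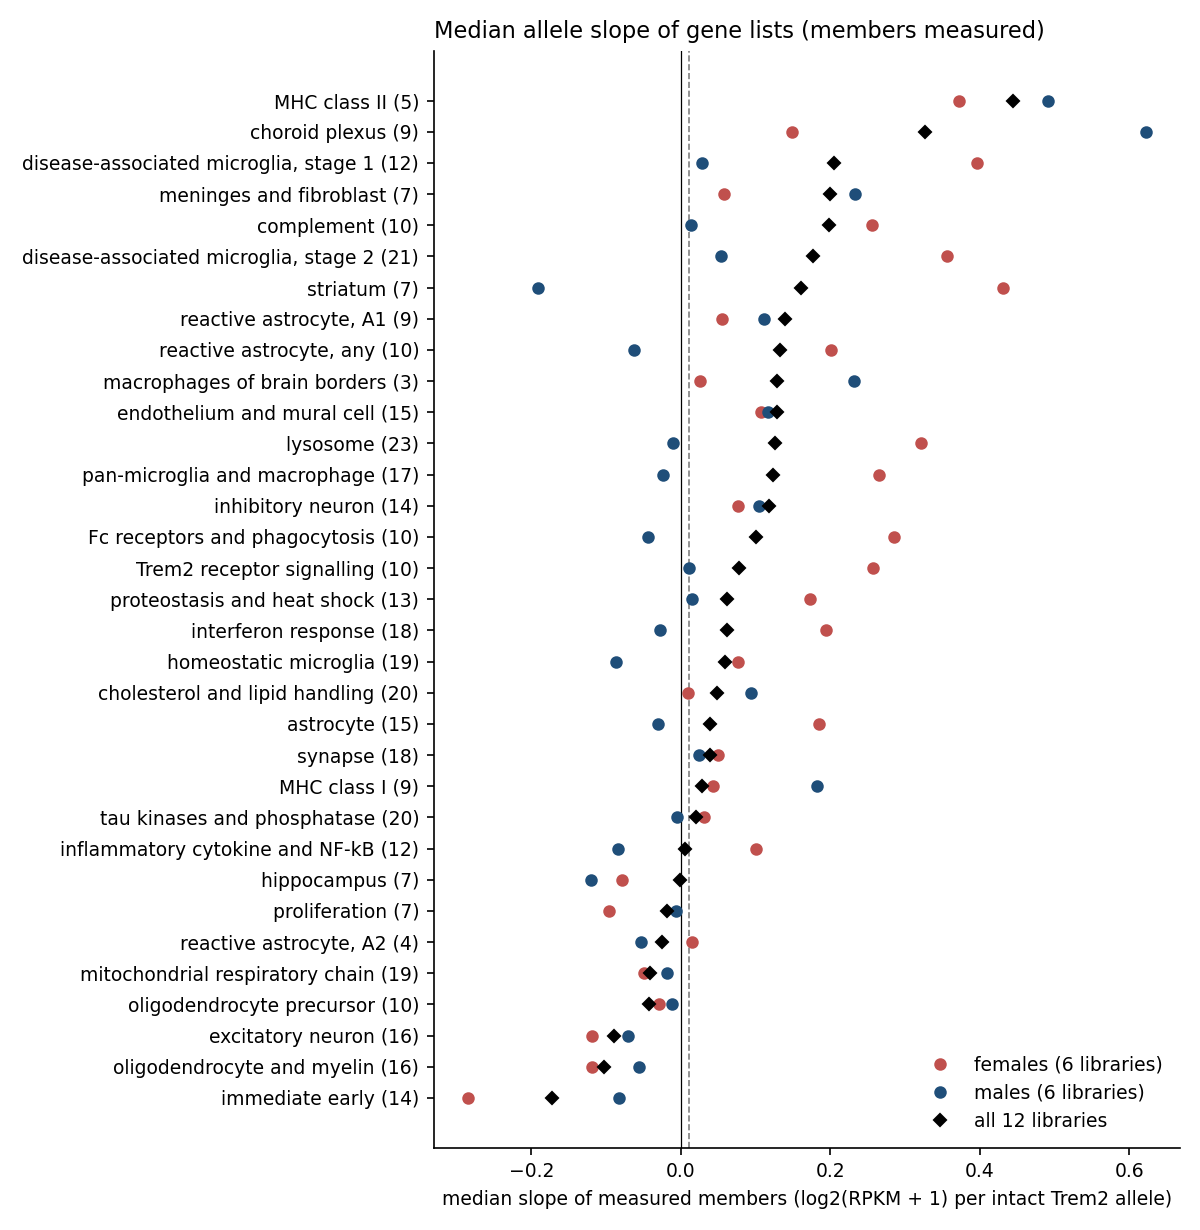
Median slope (log2(RPKM + 1) per intact Trem2 allele) of the measured members of each gene list with at least 3 of them, over all 12 libraries (black), the 6 female (red) and the 6 male ones (blue); the dashed line is the median of all genes, 0.01. For the stage 1 list the median is 0.40 in females and 0.03 in males, and for MHC class II it is 0.37 and 0.49. The females with both Trem2 alleles intact are the pair that stood apart, and the values in females rest on them.

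Slopes differed between the sexes for 475 of 11990 genes (3.96%; interaction in limma, adjusted p under 0.05), 452 with the more negative slope in females (3.77%) and 23 with the more positive one (0.192%). The median slope of the 475 was -0.78 in females and -0.02 in males. For 444 of them (93.5%) both P301S+ TREM2+/+ females lay below the other 10 libraries, an order seen for 16.6% of all genes. Mgst3, a glutathione transferase gene, was 2.27, 1.94, 66.7 and 66.6 RPKM with 2 alleles, 35.0, 34.1, 44.2 and 33.1 with 1 and 115, 69.1, 114 and 63.9 with 0. The 2-allele females were the lowest of the 12 P301S+ libraries, and control replicate 3, also a female, had 0.602 RPKM (slope -2.43 in females and -0.18 in males, adjusted p = 0.00125). Shfm1, which encodes a small proteasome subunit, was 43.9 and 48.7 RPKM in those females, 110 to 294 in the other 10 P301S+ libraries and 56.8 in control replicate 3. Pld4, an endolysosomal exonuclease gene of microglia, went the other way, with 4.29 and 3.24 RPKM in those females and 0.462 to 2.60 in the other 10 P301S+ libraries (slope 0.82 and -0.18, adjusted p = 0.0202).

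With the females alone 2005 genes passed the trend threshold and with the males alone 0 did, each in 6 libraries with 2 per genotype. The counts do not by themselves compare the sexes. The slope in females compares the knockout females with the pair of P301S+ TREM2+/+ females that stood apart. In these libraries a difference in slope between the sexes therefore cannot be told apart from that pair. In the microglial lists the median slope in females and males was 0.40 and 0.03 for stage 1, 0.36 and 0.05 for stage 2, 0.26 and -0.02 for pan-microglia, and 0.32 and -0.01 for the lysosome. In these 4 lists the difference between the sexes passed the threshold for Cst7, with the higher slope in females, and for Cd9 and Csf1, with the lower slope in females. Endothelial and mural genes had medians of 0.11 in females and 0.12 in males (0.13 over all 12 libraries, 0.08 without the 2 females and 0.04 without P301S+ TREM2+/+ replicate 3). Among the 9 genes past the trend threshold, the slope was larger in size in females for all 9, beside 71.6% of all genes, and the difference between the sexes passed the threshold for C1qtnf4 alone.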

How the data were processed

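Per the labels' protocols, cortical RNA was made into Lexogen QuantSeq 3′ libraries, which were read on a HiSeq4000. Per the submitters' processing notes, the tools were STAR, HTSeq, edgeR and limma and the build mm10, with no version or role. The deposited values were taken as RPKM. The deposited headers do not name the unit, but within a gene the RPKM values were whole multiples of 1 read for 100.0% of 18911 genes above 0 (tolerance 0.0001 reads or a relative 1e-06), and the implied gene lengths had a median ratio of 0.984 to GENCODE vM21. A file lists 24060 genes, 1 further line without a gene name was dropped, and 2 symbols listed more than once were not tested. RPKM of 3′ reads is compared here within a gene and not between genes. The strand setting of the counting is not given in these sources. Libraries of 1 genotype differed beyond counting noise (lowest chi-square per gene 6.87), and each was counted as 1 mouse. Nothing says how mice were pooled or prepared, so p-values measure the spread between these libraries.

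Slopes, departures and sex differences came from limma 3.58.1 (R 4.3.3, with a mean-variance trend), fitted to log2(RPKM + 1) of genes that averaged at least 1 RPKM over the 12 libraries, with 3 genotypes and sex (8 residual degrees of freedom) or their interaction (6). The pseudocount understates changes of low genes. P-values were adjusted over 11990 genes by Benjamini and Hochberg, and the scripts were tested on simulated data. Single values had two-sided exact permutation tests. Recovered reads served limma-voom as an alternative. The genes in the text are a panel of 30, the 10 smallest trend p in each direction, the 5 smallest departure p and 3 smallest sex-difference p in each direction, the 3 smallest p in each list, all past the threshold, and the 5 steepest in strict order in each direction. Taf8, Cd9 and the markers Slc17a7 and Gad1 were named after their values were seen. The comparison, the 36 lists (511 genes, 5 not found in the files and 111 below the filter) and the panel were chosen with earlier results of these data known. The females-only and males-only fits were added after seeing the data. Of lists not described in the report, median slopes follow, with the value without the 2 P301S+ TREM2+/+ females in brackets. They were 0.10 (-0.09) for Fc receptors and phagocytosis, 0.03 (0.11) for MHC class I and 0.04 (-0.08) for astrocytes. A1 and A2 reactive astrocytes had 0.14 (0.04) and -0.03 (-0.02), and oligodendrocyte precursors -0.04 (-0.02). Cholesterol and lipid handling had 0.05 (0.10), proliferation -0.02 (-0.02), border macrophages 0.13 (0.10) and hippocampus -0.001 (0.007). Blood had 2 measured genes (median 0.06) and T cells 1 (0.09).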

Additional observations from a re-analysis of the deposited data

Results flagged for a closer look

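Slopes differed between the sexes for 475 genes. Among named genes the slope in males minus that in females was -0.60 for C1qtnf4, -1.70 for Cst7 and 0.75 for Snap25 (interaction in limma, adjusted p of 0.0395, 0.0417 and 0.0493). Snap25 was 468 and 604 RPKM in the P301S+ TREM2+/+ females and 652 to 1626 in the other 10 libraries.

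A library far from the other 3 of its genotype, by Dixon's test, was seen in 9 of 210 sets of 4 values, and chance gives about 1 in 20. In knockout replicate 4 Trem2 was 3.75 RPKM (others 1.44 to 1.71) and Clec7a 1.24 (others 0.161 to 0.342). In P301S+ TREM2+/+ replicate 1 Clec7a was 5.24 RPKM (others 1.98 to 2.16), Gfap 22.4 (others 9.96 to 11.1) and the hippocampus list 2.70 in mean log2(RPKM + 1) (others 2.42 to 2.44). Oard1 was 18.5 RPKM in heterozygote replicate 4 (others 14.9 to 15.3), and Tmem119 was 9.49 in P301S+ TREM2+/+ replicate 4 (others 16.97 to 17.7). The mean log2(RPKM + 1) of the choroid plexus list was 3.62 in knockout replicate 1 (others 2.39 to 2.53), and that of the proteostasis list 5.66 in knockout replicate 3 (others 5.83 to 5.86).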

How the results depend on the processing

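The 9 genes past the trend threshold became 1 with all 16 libraries in the fit, 4 with limma-voom on recovered reads and 166 with limma-voom and library quality weights (80 with a positive and 86 with a negative slope). They became 0 without both P301S+ TREM2+/+ females, 2005 in females only and 0 in males only. Leaving out 1 library gave 1 to 1091 genes. The count was 1, 1, 4 and 1091 without P301S+ TREM2+/+ replicates 1 to 4, 1, 2, 2 and 5 without knockout replicates 1 to 4, and 6 or 7 without a heterozygote. Filters, pseudocounts, scaling and the other models gave 6 to 10. The 0 genes of the departure became 1 with library weights, 1 with limma-voom and 1 with limma-voom and quality weights, and leaving out 1 library gave 0 to 1 (1 without knockout replicate 1). The 475 genes with a sex difference became 271 with no filter, 0 with all 16 libraries and 112 to 513 with 1 library left out, the lowest being 112 without knockout replicate 4, 149 without knockout replicate 2 and 153 without P301S+ TREM2+/+ replicate 1. Other such counts were 313, 307 and 236 without P301S+ TREM2+/+ replicates 2, 3 and 4. Strict allele order held for 12 to 53 genes with 1 library left out, the highest without P301S+ TREM2+/+ replicate 4. The share of heterozygotes on the 2-allele side, 44.9%, was 47.7% without the 2 females and 31.6% to 57.2% with 1 library left out. The slope of Trem2 stayed positive, at 10.1 RPKM per allele without the 2 females and 11.3 to 14.4 with 1 library left out. All 9 genes kept their sign in every fit, and the median of 16 of 33 lists changed sign without the 2 females, of 8 with 1 library left out and of 2 under another scaling. The fit without the 2 females takes its sex term from heterozygotes and knockouts. Not all of these 16 medians changed sign in the males alone, which also leave out the pair. Depth limits low genes: the shallowest library had 2.55 M reads (M, 1e+06) and 5 Trem2 reads. No paired analysis was possible because the labels number the mice consecutively across genotypes and share no replicate number.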
